A study of Mus musculus with 2 samples.

Results

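Nicotinic acetylcholine receptors are ion channels that open when acetylcholine binds, and the 8 genes described here encode neuronal-type subunits of them. They are Chrna5, Chrna3 and Chrnb4, which lie side by side on chromosome 9 and are called the cluster below, and Chrna4, Chrnb2, Chrna7, Chrna9 and Chrna10, which lie elsewhere. These are 8 of the 21802 protein-coding genes of GENCODE M21 used. Chromatin accessibility around them was measured by DNase-seq, which cuts DNA in nuclei with DNase I, so that often-cut stretches appear as DNase I hypersensitive sites (DHSs). A DHS belonged to a gene when it touched the gene body or the 50 kb on either side. Its height is the signal value that the authors deposited for each peak.

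The series has 1 group of 2 libraries, replicate 1 and replicate 2, each from the adrenal gland of a male B6CASTF1/J mouse aged 25 days, with no agent or edited allele named in the labels. B6CASTF1/J mice are F1 hybrids of a B6 and a CAST parent, and the deposited heights do not separate the parental alleles. The labels number the animals separately, while giving both the same donor code. Whole gland was used, so steroid-making cortex and catecholamine-making medulla are mixed, and fewer open cells and weaker opening per cell cannot be told apart. With a single group no p-value is given, and sites within a library are not replicates.

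Each receptor is a ring of 5 subunits. Receptors built from the α3 and β4 subunits, often with α5 as an accessory subunit, carry the signal of the splanchnic nerve to chromaffin cells, the medullary cells that then release catecholamines. The α4 and β2 subunits form the most abundant receptor of the brain, α7 can form a receptor by itself, and α9 with α10 forms the receptor of cochlear hair cells.

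The sequences of 7 DHSs carry most of what follows. They are shown 5′ to 3′ on the strand of the subunit gene, from the mm10 reference (GRCm38.p6, RefSeq), and capitals mark bases inside the footprints that the authors called in replicate 1, short stretches of fewer cuts within a DHS. The first is the highest DHS within the genes of the cluster, at the boundary of exon 3 and intron 3 of Chrna3 (chr9:55024021-55024180, minus strand).
Chrna3: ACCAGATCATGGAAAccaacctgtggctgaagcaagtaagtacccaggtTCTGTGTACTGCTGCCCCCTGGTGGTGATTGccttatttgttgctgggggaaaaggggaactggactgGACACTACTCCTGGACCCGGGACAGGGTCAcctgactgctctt
The next is the higher of the 2 promoter DHSs of Chrna5 (chr9:54981301-54981460, plus strand), the highest promoter DHS of the cluster.
Chrna5: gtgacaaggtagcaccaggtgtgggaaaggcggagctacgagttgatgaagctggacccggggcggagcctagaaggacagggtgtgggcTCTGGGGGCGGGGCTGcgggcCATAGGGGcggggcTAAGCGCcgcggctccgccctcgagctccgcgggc
The 2 DHSs upstream of Chrna4 differed most between the libraries and come next, the nearer at chr2:181060281-181060440 and the farther at chr2:181072241-181072420, both minus strand.
Chrna4 nearer: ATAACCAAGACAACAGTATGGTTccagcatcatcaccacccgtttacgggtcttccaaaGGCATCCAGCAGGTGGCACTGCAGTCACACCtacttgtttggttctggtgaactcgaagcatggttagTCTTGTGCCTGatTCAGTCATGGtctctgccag
Chrna4 farther: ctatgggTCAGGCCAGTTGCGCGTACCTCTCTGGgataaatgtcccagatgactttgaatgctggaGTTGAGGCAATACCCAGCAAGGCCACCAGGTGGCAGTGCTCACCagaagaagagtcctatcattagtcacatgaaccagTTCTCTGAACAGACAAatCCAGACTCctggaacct
Chrna9 had no promoter DHS but held 2 high DHSs within its gene body, at chr5:65938141-65938300 and chr5:65955921-65956080, both plus strand.
Chrna9 first: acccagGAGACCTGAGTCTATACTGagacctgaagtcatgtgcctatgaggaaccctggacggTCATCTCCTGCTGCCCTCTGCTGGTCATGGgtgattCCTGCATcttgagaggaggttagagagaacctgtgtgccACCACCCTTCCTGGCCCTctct
Chrna9 second: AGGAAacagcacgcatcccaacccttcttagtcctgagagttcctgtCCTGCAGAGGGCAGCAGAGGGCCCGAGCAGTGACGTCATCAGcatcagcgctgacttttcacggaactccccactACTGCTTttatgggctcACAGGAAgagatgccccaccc
The last is the part of the Chrna7 promoter DHS that lies upstream of the gene (chr7:63212570-63212680, minus strand), the highest promoter DHS of the 8 genes in replicate 1.
Chrna7: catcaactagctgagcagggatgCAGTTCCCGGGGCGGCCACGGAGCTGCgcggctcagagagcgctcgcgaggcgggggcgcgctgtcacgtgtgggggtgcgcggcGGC

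Replicate 1 held 130945 DHSs with a median height of 1.01 and replicate 2 held 157786 with a median height of 0.720. All heights were whole multiples of a step of 0.00833 in replicate 1 and 0.00888 in replicate 2, within 0.02 of a step, and read as CPM these steps give library totals of 120 and 112.6 M counts. Promoters, that is, the 1 kb on each side of a gene's starts, held a DHS in both libraries at 65.8% of all protein-coding genes. Of the markers of the labelled tissue, this was so at 6 of 6 cortex genes and 5 of 6 chromaffin genes. The chromaffin genes were led by Slc18a1, the vesicular monoamine transporter, with promoter heights of 26.8 and 19.1. Chgb had 13.3 and 4.91, and Chga had 5.67 and 2.48. Th and Dbh were weaker, with 1.37 and 1.13 at Th and 1.05 and 0.7995 at Dbh. Pnmt, the adrenaline-making enzyme of chromaffin cells, had none in either library. At Th, and at Cyp11a1 of the cortex list, the DHS lay near another annotated start. Neither gene had a DHS within 1 kb of its 5′ end in either library. Th, Dbh, Pnmt and Cyp11a1 are named after their values were seen. Schwann cell markers had 2 of 4, endothelial markers 2 of 3 and leukocyte markers 0 of 4 in both libraries. The libraries differed in the leukocyte list, with 0 of 4 open in replicate 1 and 2 of 4 in replicate 2, Cd79a at 1.83 and Cd3e at 0.577, whose part in the results was not tested.

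Each of the 3 cluster genes had a promoter DHS in replicate 1 and again in replicate 2, and all were weak. With the shorter, stricter peak list Chrnb4 had none in either library and Chrna3 had none in replicate 2. A gene's promoter DHSs are those that touch the 1 kb on each side of one of its protein-coding starts, and the strongest gives the height. Chrna5, the accessory subunit, had promoter heights of 1.24 in replicate 1 and 1.395 in replicate 2. Chrna3, which supplies the main ligand-binding face, had 0.733 and 0.791, and its partner Chrnb4 had 0.817 and 0.648. Among all genes with an open promoter, whose median heights were 8.85 and 6.25, Chrna5 stood at percentiles 11.9 and 17.6, Chrna3 at 6.05 and 8.975, and Chrnb4 at 6.97 and 6.57. Each of the 3 was therefore at a low level in each library, and the order of Chrna3 and Chrnb4 changed between libraries.

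The other 5 subunits ranged more widely. Chrnb2, the partner of α4, had promoter heights of 6.05 and 3.54 (percentiles 36.9 and 33.8), and Chrna7 had 7.72 and 2.505 (44.8 and 26.9). Chrna4 lay between these and the cluster, with 2.17 and 2.15 (18.5 and 24.4). Chrna9 and Chrna10, the hair-cell pair, had no promoter DHS in either library. In both libraries the 3 cluster genes lay below Chrna4, and Chrna4 lay below Chrnb2 and Chrna7, while Chrnb2 and Chrna7 changed places. In all, the promoters of 6 of the 8 genes were open in both libraries, beside 65.8% of all 21802 protein-coding genes, a share too near to theirs to set the receptor genes apart.

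**Figure D1:**
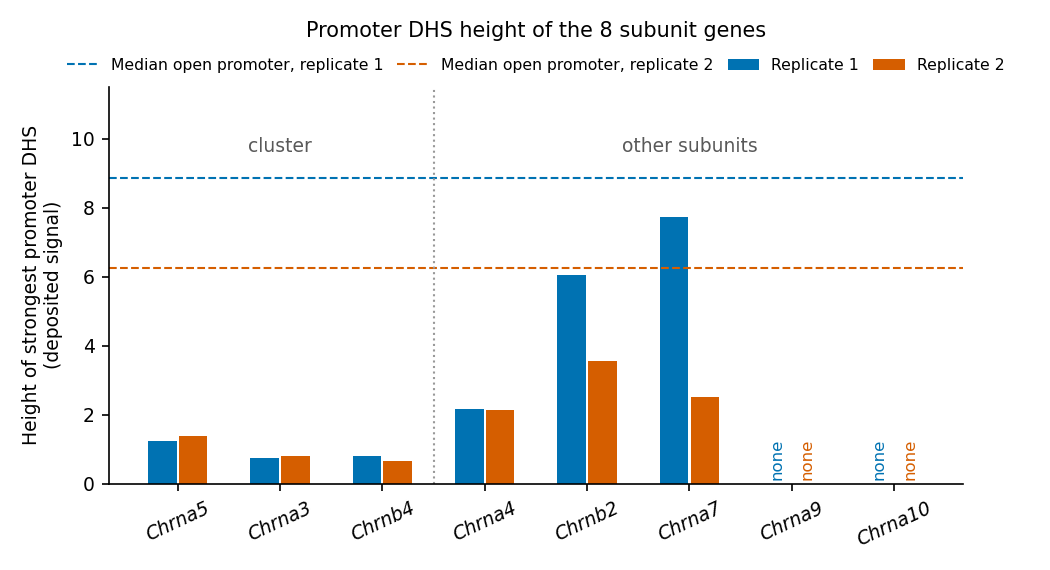
Height of the strongest promoter DHS (deposited signal, linear axis from 0) of each subunit gene in replicate 1 (blue) and replicate 2 (orange), cluster genes left of the dotted line, with dashed lines at the median of all open promoters. The 3 cluster genes lie between 0.648 and 1.395, below every open promoter of the other subunits, and Chrna9 and Chrna10 have none.

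Base composition at the 5′ ends did not follow promoter height. CpG islands, stretches rich in the CG dinucleotide, underlie promoters that are open in most tissues. Over the 500 bp on either side of the 5′ end, the ratio of observed to expected CG was 0.38 at Chrna5, 0.639 at Chrna3 and 0.373 at Chrnb4. The other subunits had 0.813 at Chrna7, 0.514 at Chrnb2, 0.217 at Chrna9, 0.17 at Chrna10 and 0.154 at Chrna4. The median was 0.705 over genes with a promoter DHS in both libraries and 0.174 over the rest. Chrna7, the highest promoter of replicate 1, had the highest ratio, and Chrna9 and Chrna10, without a promoter DHS, had low ones. The weak Chrna3 promoter had a higher ratio than that of Chrnb2, and Chrna4 was open with the lowest of the 8 at its 5′ end. The 200-base window on the Chrna4 DHS at an internal start in replicate 1 held 26 CG dinucleotides. That on the higher Chrna4 DHS, at the 5′ end, held 2 in each library. At Chrna5 the measured stretch ended within its higher promoter DHS, which lies beside later starts. The 200-base window on that Chrna5 DHS held 16 CG dinucleotides in each library, so its ratio does not describe the open site.

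Within the cluster the shared DHSs lay at 4 places, the promoters of the 3 genes and the start of intron 3 of Chrna3. From the start of Chrna5 to the 5′ end of Chrnb4, a span of 67.9 kb, each library held 8 DHSs, of which 6 overlapped a DHS of the other library by at least 1 bp. The highest was not at a promoter. It lay across the boundary of exon 3 and intron 3 of Chrna3, 2461 bp from the 5′ end, with heights of 6.90 in replicate 1 and 2.91 in replicate 2. It lay mostly in the intron and covered some coding bases of exon 3, and the authors' FDR there reached 4.26e-40 and 1.54e-14. The Chrna3 promoter DHS itself was at 55026441 to 55026520 in replicate 1 and at 55026481 to 55026660 in replicate 2, over the first exon, with 88 and 89 steps of signal. This DHS was thus several times as high as the promoter DHS of the same gene in both libraries.

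Chrna5 had 2 shared DHSs at its promoter. The higher was centred 85 bp upstream of the start at 54981466 and touched no annotated coding or UTR base. The lower, in the first intron (chr9:54981821-54982020 in replicate 1), had heights of 0.942 and 0.817. Chrnb4 had overlapping calls at its first exon. In replicate 1 they were 55048299 to 55048700 (0.817) and 55048501 to 55048700 (0.767), and in replicate 2 they were 55048420 to 55048480 (0.524) and 55048523 to 55048641 (0.648). Peaks of 1 list can overlap, and the shorter call of replicate 1 lies wholly inside the longer, so part of that stretch is counted again. The FDR there went no lower than 0.00345 in replicate 1. None of these Chrnb4 calls was in the shorter, stricter peak list of its library.

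The 2 remaining DHSs of the span in each library were weak and not shared. Replicate 1 had 0.650 in the last exon of Chrna3 and 0.617 in its first intron. Replicate 2 had 0.533 elsewhere in that intron and 0.462 in the first intron of Chrna5. Over the whole cluster window, none of the 6 unshared DHSs of replicate 1 and none of the 4 of replicate 2 touched a stretch with an FDR of 0.05 or less in the other library. Of all unshared DHSs, 9.23% in replicate 1 and 6.77% in replicate 2 touched one, so a count of 0 among so few is close to that of the libraries as a whole.

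The highest DHS of the cluster window belonged to a neighbour. It lay over the start of Psma4, a proteasome subunit gene, and inside AY074887, which overlaps it (chr9:54950681-54950860), with heights of 13.5 and 11.0, and made up 47.9% and 54.8% of the summed height of the window. The promoter DHSs of the 3 receptor genes together made up 16.0% and 23.6%. The flank on the Chrnb4 side held 3 DHSs in replicate 1, of at most 0.608, and 1 of 0.551 in replicate 2, and none was shared.

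**Figure D2:**
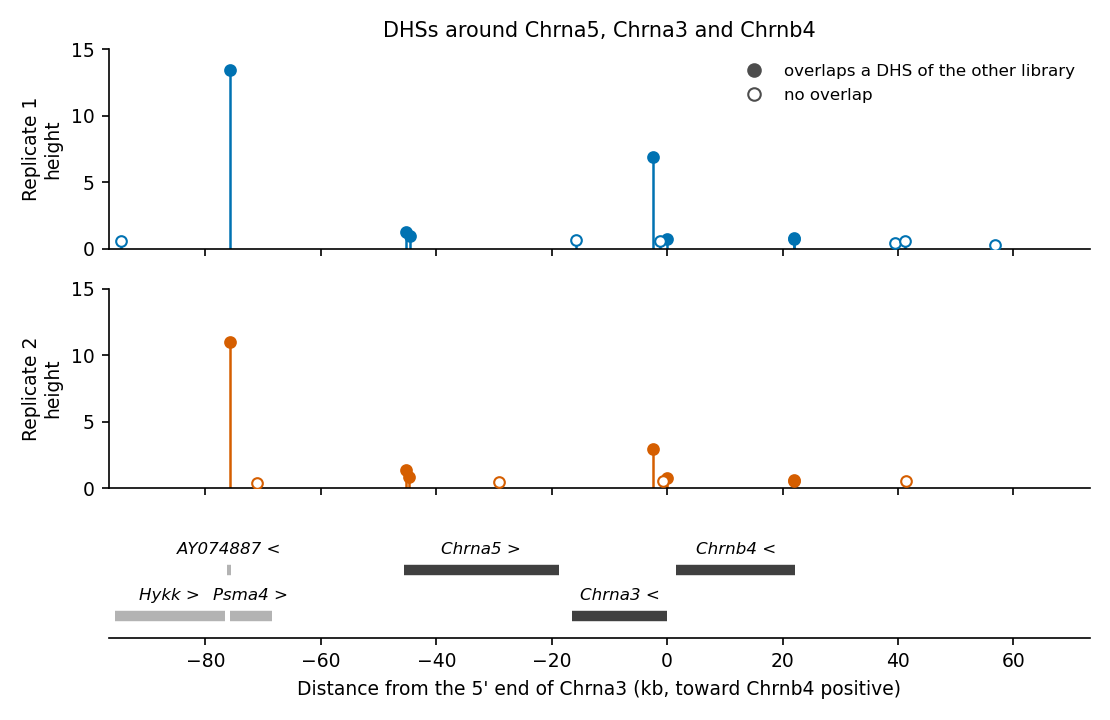
Heights (deposited signal) of all DHSs in the cluster window against distance from the 5′ end of Chrna3 in kb, with replicate 1 above replicate 2; filled points overlap a DHS of the other library, open points do not, and bars show protein-coding genes, receptor genes dark. The Chrna3 DHS near the zero point stands at 6.90 and 2.91, the Psma4 promoter at 13.5 and 11.0, and the next highest DHS is at 1.395.

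Counted over the whole window of 167.9 kb, the cluster held 13 DHSs in replicate 1 and 11 in replicate 2, while the windows of the other 5 subunits, 705.5 kb in all, held 53 and 61. That is 7.74 and 6.55 DHSs per 100 kb in the cluster, 7.51 and 8.65 around the other subunits, and a median of 8.16 and 8.39 over all genes. The ratio of cluster to other subunits was 1.03 in replicate 1 and 0.758 in replicate 2, so the libraries did not give the same direction. Median heights were 0.733 and 0.648 in the cluster, below the 0.867 and 0.7995 of the other subunits in both libraries. That order did not hold in replicate 1 once promoter DHSs of neighbouring genes were left out (ratio 1.05), nor in replicate 2 with the shorter peak list (1.21).

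Sharing between the libraries did not separate the cluster from the other subunits. In the cluster 7 of 13 DHSs of replicate 1 were shared, 53.8% (95% Wilson interval 29.1 to 76.8), and 7 of 11 of replicate 2, 63.6% (35.4 to 84.8). Around the other subunits 35 of 53 were shared in replicate 1, 66.0% (52.6 to 77.3), and 35 of 61 in replicate 2, 57.4% (44.9 to 69.0). Over all DHSs the shares were 62.2% in replicate 1 and 51.8% in replicate 2. The cluster was the lower of the 2 sets in replicate 1 and the higher in replicate 2, with overlapping intervals, which cover counting error only. Taking for each DHS the sharing of all DHSs in its height decile gives 51.3% and 50.02% for the cluster and 61.0% and 59.3% for the other subunits.

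Sharing ranged more widely among the single genes than between the 2 sets, but each gene had few DHSs. The share expected from height deciles is given in brackets. Chrna4 shared 9 of 12 and 9 of 11 DHSs (65.2% and 63.2%), and Chrnb2 shared 11 of 14 and 11 of 15 (80.6% and 77.8%). Chrna7, with the longest gene body, shared 3 of 9, 33.3%, in each library (31.5% and 36.7%). Chrna10 shared 3 of 8 and 3 of 6 (58.45% and 64.6%). Chrna9 shared 9 of 10 in replicate 1 (57.1%) and 9 of 20 in replicate 2 (51.75%), where 11 DHSs had no overlap in replicate 1. Chrnb2, at 78.6% and 73.3%, and Chrna7 were near the share expected from height. In both libraries Chrna4 lay above it and Chrna10 below it. The intervals were wide, 12.1 to 64.6% at Chrna7.

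At Chrna4 the highest DHSs of replicate 1 lay upstream of the gene and were much lower in replicate 2, where the promoter was highest. The nearer of the 2 printed above, centred 16815 bp upstream of the 5′ end, had heights of 6.63 in replicate 1 and 1.46 in replicate 2. The farther, 28785 bp upstream, had 5.16 and 0.702. Their log2 ratios of replicate 2 over replicate 1 were -2.19 and -2.88, at percentiles 0.833 and 0.0555 of all 82852 overlapping pairs, whose median was -0.34. The promoter of the same gene did not move with them. Its DHS at chr2:181043501-181043700 had 2.17 and 2.15, and a DHS at an internal start (chr2:181039081-181039400 in replicate 1) had 1.96 and 1.09. Within the body, 5 of 5 DHSs of replicate 1 and 5 of 6 of replicate 2 were shared.

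**Figure D3:**
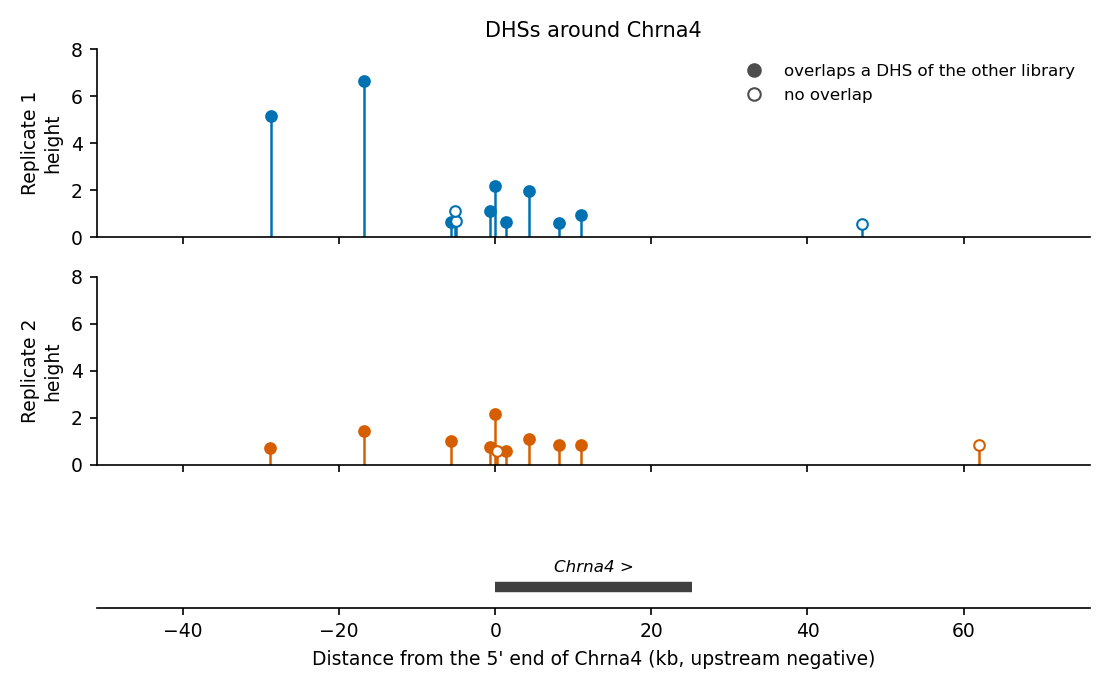
Heights (deposited signal) of DHSs around Chrna4 against distance from its 5′ end in kb, upstream to the left, with replicate 1 above replicate 2 symbols as in the map of the cluster and a bar for the Chrna4 gene alone. The 2 upstream DHSs stand at 5.16 and 6.63 in replicate 1 and at 0.702 and 1.46 in replicate 2, while the promoter is at 2.17 and 2.15.

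Chrna9 had high DHSs within its gene body without an open start. Its annotated body spans transcripts that begin at 65934921 and at 65967124, and no DHS came within 1 kb of a start in either library. Both printed DHSs lie upstream of the start at 65967124 and are intronic only in the transcripts that begin earlier. The first printed DHS, 3300 bp inside the gene, had heights of 5.08 and 2.92. The second, 11123 bp upstream of the start at 65967124, had 5.36 and 4.03. Beside it, a DHS at chr5:65958721-65958880 had 1.475 in replicate 1 and 1.24 in replicate 2. All 7 DHSs inside the gene in replicate 1 were shared, as were 7 of 8 in replicate 2.

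Of these 11 DHSs of replicate 2, all but 1 lay outside the Chrna9 gene. They included a DHS of height 1.70, centred 5530 bp upstream of a start (chr5:65929361-65929420), with no counterpart in replicate 1. A further 6, of at most 0.595, lay within Rbm47, an RNA-binding protein gene at the edge of the window, and 4 of these touched its coding sequence. None of the 6 was shared.

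**Figure D4:**
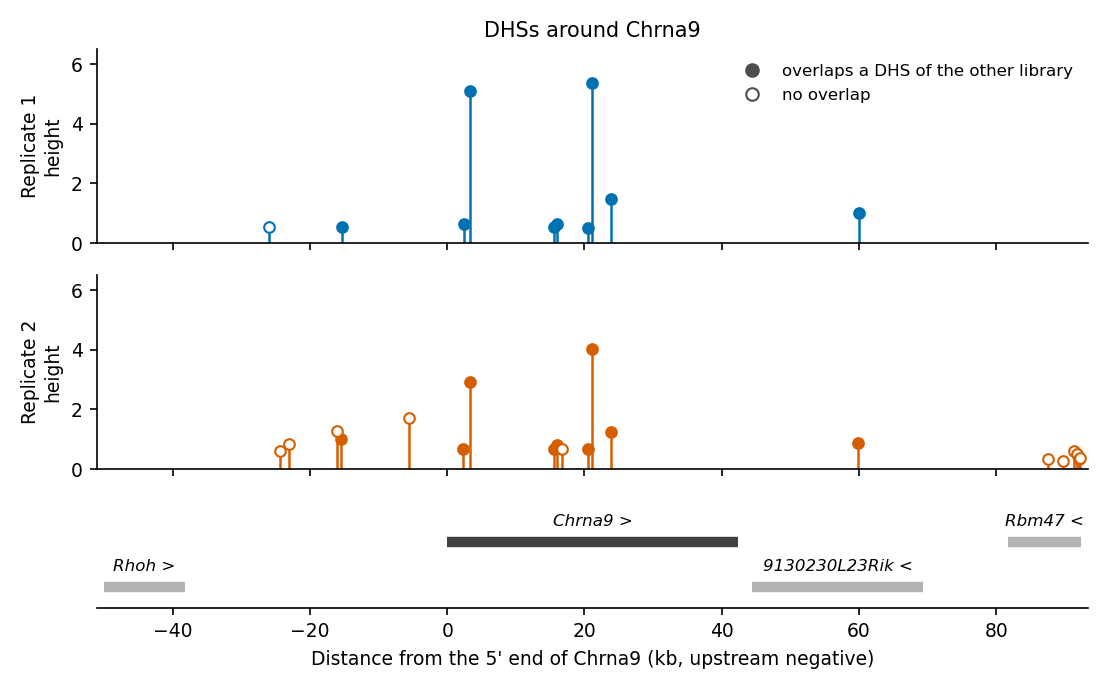
Heights (deposited signal) of DHSs around Chrna9 against distance from its 5′ end in kb, upstream to the left, with replicate 1 above replicate 2 and symbols as in the map of the cluster. The 2 printed DHSs reach 5.08 and 5.36 in replicate 1 and 2.92 and 4.03 in replicate 2. The group of open points at the right edge in replicate 2 lies in Rbm47.

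The single high DHS of Chrna7 was its promoter (chr7:63212501-63212680 in replicate 1), at 7.72 and 2.505. Its log2 ratio of -1.62 stood at percentile 4.27 of all pairs. The rest of the window was sparse and weak in both libraries, at 4.21 DHSs per 100 kb in each, with no other DHS above 0.702. Chrnb2 was the opposite case, with 11.8 and 12.7 DHSs per 100 kb, most of them at neighbours. Its promoter DHS (chr3:89764381-89764560 in replicate 1) had 6.05 and 3.54 and covered part of its first exon. The highest of its window, at the promoter of the ubiquitin-conjugating enzyme gene Ube2q1, had 17.4 and 15.8, and a start of the RNA-editing gene Adar had 7.22 and 7.0.

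Chrna10 had neither a promoter DHS nor a shared DHS in its body. The only DHS in its body lay in exon 4 in each library, at 0.883 in replicate 1 and 0.640 in replicate 2, within a stretch shared with Art1, an ADP-ribosyltransferase gene. The 2 calls did not overlap, but they were neighbours (102113271 to 102113460 in replicate 1 and 102113482 to 102113540 in replicate 2), and the call of replicate 1 touched a stretch of replicate 2 with an FDR of 0.0429. The highest DHS of its window was the promoter of the ubiquitin ligase gene Rnf121, with 12.9 and 10.5.

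Heights of shared DHSs were mostly lower in replicate 2, as in the libraries as a whole. In the cluster 6 of 8 overlapping pairs were lower in replicate 2 (median log2 ratio -0.27), and around the other subunits 25 of 35 were (median -0.21). The overlapping Chrnb4 calls entered the cluster pairs more than once. Over all pairs the median was -0.34, and a ratio of -0.004, almost equal heights, stood at percentile 70.7. These counts are therefore close to those of all pairs. The Chrna3 DHS had a log2 ratio of -1.24, at percentile 9.99. The pairs below -1 were thus this DHS, the Chrna7 promoter and the 2 upstream DHSs of Chrna4.

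**Figure D5:**
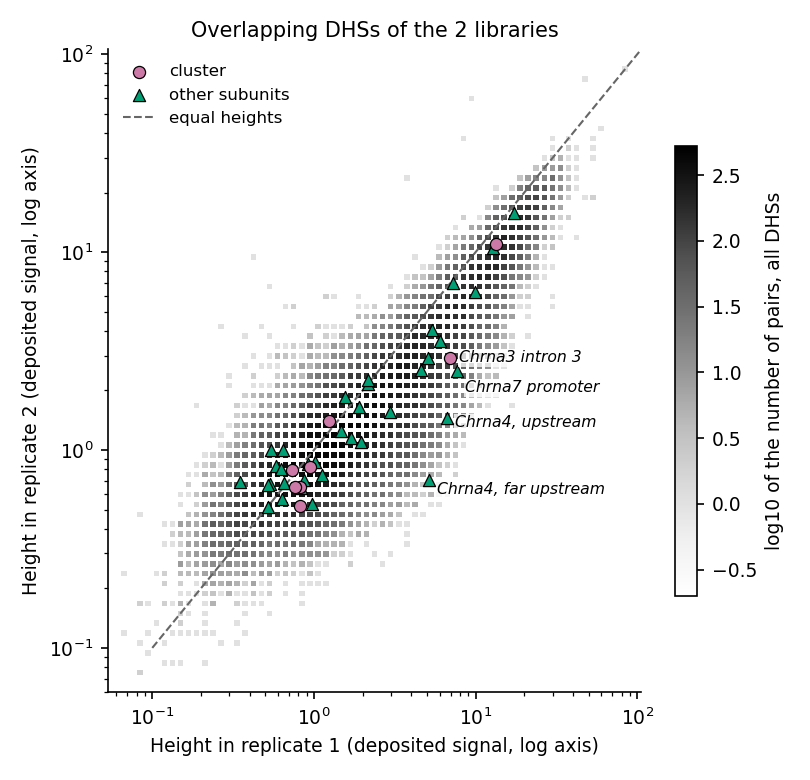
Height in replicate 2 against height in replicate 1 (deposited signal, both axes logarithmic) for overlapping DHSs, with grey squares counting all 82852 pairs, circles for the 8 cluster pairs, triangles for the 35 pairs of the other subunits and a dashed line at equal heights. The 4 named DHSs lie farthest below the line, down to a log2 ratio of -2.88 at the farther DHS upstream of Chrna4.

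Outside promoters, 6 shared DHSs of the windows had a height of at least 5 in replicate 1. They were the Chrna3 DHS, the pairs at Chrna4 and Chrna9 printed above, and a DHS downstream of Ube2q1 in the Chrnb2 window (chr3:89785501-89785680), with heights of 9.93 and 6.26. The consensus of CTCF, a protein that holds chromatin loops together, was searched on both strands after these sequences had been seen. It matched in 4 of the 6, at positions 63 to 74 of the Chrna3 sequence, 65 to 76 of the nearer and 89 to 100 of the farther Chrna4 sequence, and 76 to 87 of the first Chrna9 sequence, counted from the 5′ end as printed. In each the 12 bases lay wholly inside footprints of replicate 1. They also lay wholly inside footprints of replicate 2, except at the farther Chrna4 DHS, where none did. A match is a description of the letters, not evidence of binding.

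Such matches were common among high distal DHSs of replicate 1. They were present in 21.5% of its 5977 DHSs that lay over 1 kb from any start and had a height of at least 5, and in 4.57% of all its DHSs, over 200-base windows on their centres. In replicate 2 they were present in 8.32% of the 1730 such DHSs and in 3.12% of all. Pairs of the high distal class with a match had a median log2 ratio of -1.38 (n = 1280) and those without one -0.95 (n = 4679), while pairs at promoters had -0.41. The high class was chosen on replicate 1, which by itself lowers its ratios. The Chrna3 DHS at -1.24 was near the median of its class, and the 2 Chrna4 DHSs were below its 10th percentile of -2.045. The first Chrna9 DHS, at -0.80, was near its 90th percentile of -0.76, so the 4 DHSs with a match spanned the class. What else differed between the libraries at such sites was not tested.

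Other consensus letters were searched on both strands in the same 200-base windows. The GC-box letters GGGCGG, bound by SP and KLF factors, occurred 4 times in the printed Chrna5 sequence and once in that of Chrna7. In Chrna5 they lay at positions 61 to 66, 96 to 101, 117 to 122 and, on the other strand, 140 to 145. Footprints of replicate 1 covered 6 bases of the match at 96 to 101 and 3 of that at 117 to 122. The footprint of replicate 2 covered 6 bases of the match at 61 to 66, and the last match lay in no footprint. Footprints of the 2 libraries shared 0 bases of this Chrna5 DHS. The Chrna7 match had 6 bases in footprints of each library. GGGCGG was present in 5 of 13 and 5 of 11 DHSs of the cluster, 11 of 53 and 13 of 61 of the other subunits, and 19.7% and 15.8% of all DHSs. The cyclic AMP response element TGACGTCA occurred at positions 78 to 85 of the second Chrna9 sequence, with 8 of its bases in footprints of replicate 1 and 6 in replicate 2, and was present in 0.735% and 0.633% of all DHSs. The letters AAGGTCA, bound by the cortical factor NR5A1, were present in 0 of 13 and 0 of 11 cluster DHSs, in 4 of 53 and 4 of 61 of the other subunits, and in 6.23% and 5.80% of all DHSs. TGANTCA, the AP-1 site, matched once in the nearer Chrna4 sequence, at positions 137 to 143. Of this match 5 bases lay in footprints of replicate 1 and 0 in those of replicate 2. TGANTCA was present in 1 of 13 and 0 of 11 cluster DHSs, 11 of 53 and 7 of 61 of the other subunits, and 13.0% and 11.4% of all DHSs. Letters of GATA, ETS, E-box, NFI, homeodomain, TEAD and SOX factors were also searched, and their counts are not given here.

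At least 1 footprint was called in 8 of 13 and 8 of 11 DHSs of the cluster, and in 40 of 53 and 43 of 61 of the other subunits. Over all DHSs the shares were 77.6% in replicate 1 and 63.1% in replicate 2. The Chrna3 DHS had 3 footprints in each library. The 2 Chrna4 upstream DHSs had 4 each in replicate 1, while the nearer had 1 and the farther 0 within the narrower DHS of replicate 2. The second Chrna9 DHS had 4 and 3.

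Other genes of cholinergic signalling were read by the same promoter rule, from lists drawn up with earlier results of these data known. The remaining neuronal subunits, Chrna2, Chrna6 and Chrnb3, were open at the promoter in both libraries in 0 of 3 cases. Of 5 subunits of the muscle receptor only Chrnb1 had one, at 12.2 and 13.9. Genes of receptor assembly and the Ly6 modulators, small proteins that bind the receptor, had one at 7 of 8. They were led by Ric3, a chaperone, at 7.74 and 4.655, by Lypd6 at 6.56 and 3.91, and by Lynx1 at 6.025 and 3.50. Lypd6b, named after its values were seen, had 0.958 and 0.915, below Chrna5 in both libraries, so the open genes of the list were not all above the cluster. Beside the 65.8% of all genes, the counts of these lists, each of few genes, are given as a description.

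Muscarinic receptors, the G-protein-coupled acetylcholine receptors, were open at the promoter in both libraries in 4 of 5 cases. Chrm4 had 6.18 and 2.49, Chrm3 had 2.45 and 1.075, and Chrm1 had 0.708 and 0.542. Of 5 genes that make, carry or break down acetylcholine, 2 were open in both libraries, and both encode enzymes that break it down. Ache, the acetylcholinesterase, had 8.24 and 3.64, and Bche, the butyrylcholinesterase, had 2.12 and 1.88. Chat, which makes acetylcholine, and Slc5a7, which takes up choline, had none in either library. The counts of these lists, each of few genes, are likewise a description beside the 65.8% of all genes.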

How the data were processed

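The authors called peaks per library on mm10, and a peak's height is their deposited signal (column 7), scaled to a library total, per the file headers and the values. The deposited FDR (q-value) lists give stretches at 0.05 or less, and footprints carry an FDR of 0.01, per the file headers. Names of the aligner and callers were not given in the sources used here. The longer of 2 peak lists per library was used. The 8 members and all gene lists were chosen with earlier results of these data known. Genes came from GENCODE M21, 21802 protein-coding genes with 54236 starts, and sequences from GRCm38.p6. Sharing needed 1 bp. Named DHSs were each member's promoter DHSs, its highest DHS in body and window, and every shared DHS of the cluster genes. From lists, up to 3 genes with the highest mean promoter height were named. Alternatives were flanks of 20 and 100 kb, promoters within 500 bp or 2 kb or at the 5′ end, the shorter list, the 100000 highest DHSs, overlap of 50% of a DHS, no promoter DHSs of neighbours, and each library alone. Python 3.11.15, pandas 2.3.3, numpy 2.4.6 and statsmodels 0.14.6 were used, and overlap counting was tested on simulated data. Reads of a B6 and CAST hybrid were placed on a B6-based genome, and the effect on heights was not tested. Some neighbouring genes and list members are not reported here.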

Additional observations from a re-analysis of the deposited data

How the results depend on the processing

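Values here are means over the 2 libraries. Of 34 values recomputed over both libraries, 22 stayed within 1 SD of the 2 libraries (for counts, within 1.5 times). The 12 DHSs around the cluster became 19.5 with a flank of 100 kb and 5.5 with the shorter peak list, and the 8 inside the cluster genes became 4 with that list. Sharing around the cluster, 58.7%, became 51.3% with a flank of 100 kb, 78.6% with the shorter list (57.1% in replicate 1 and 100% in replicate 2), 74.7% among the 100000 highest DHSs and 50.3% when 50% of the DHS had to overlap. Sharing around the other subunits, 61.7%, became 72.1% with a flank of 20 kb and 67.9% with the shorter list. The ratio of median heights, cluster over other subunits, was 0.829, and became 0.759 with a flank of 100 kb, 0.953 without promoter DHSs of neighbours and 0.77 among the 100000 highest DHSs. With the shorter list its mean of 0.824 counts as unmoved, but it was 0.435 in replicate 1 and 1.21 in replicate 2. Without promoter DHSs of neighbours it was 1.05 and 0.854. The causes were not tested. The density ratio of 0.894 was between 0.838 and 0.985 under the other settings, but these means hide opposite directions. By library it was 1.03 in replicate 1 and 0.758 in replicate 2 as reported, 1.16 and 0.588 among the 100000 highest DHSs, and 1.09 and 0.646 with the shorter list. Promoter DHSs in both libraries were found at 6 genes under each setting except the shorter list, which kept 4, without Chrna3 and Chrnb4. With single libraries the cluster count ran from 11 to 13, sharing from 53.8 to 63.6% (other subunits 57.4 to 66.0%), and the ratio of medians from 0.811 to 0.846. The strongest promoter DHSs of Chrna3 and Chrnb4 had 73 to 98 steps, where the median DHS had 121 in replicate 1 and 81 in replicate 2. No paired analysis was possible because the series has 1 group.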
